A study of Mus musculus with 3 samples.

Results

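Stretches of the genome where FLI1 ChIP-seq signal was crowded were examined in MKMat, mature mouse megakaryocytes (MK, the large marrow cells that shed platelets) grown from fetal liver of embryonic day 15 mice by 5 days of culture. The chromosomes of the mm9 assembly were cut into 132753 regions of 20 kb, each made of 50 bins of 400 bp, and a bin was called FLI1-rich when it held at least 40 FLI1 reads and fewer than 15 reads of the input library, in which DNA was sequenced with no precipitation step. A region was called dense when 6 or more of its bins were FLI1-rich. In all, 501 regions (0.377% of all regions, 10.02 Mb) were dense, and adjacent ones merged into 464 loci, here called dense loci. The comparison group was the 19558 regions with 1 to 5 FLI1-rich bins, here called scattered.

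The data were 3 libraries of unmodified MKMat: 1 FLI1 ChIP, 1 RUNX1 ChIP and 1 input, with 62946422, 3973856 and 21745220 reads used. The RUNX1 file used here is more than an order of magnitude smaller than the number of mapped tags that the study lists for this experiment, and the FLI1 file is somewhat smaller, for a reason not given in the sources used here. Precipitates were pooled before sequencing, so each antibody has 1 library and no replicate. No test between conditions was possible, and the 95% intervals given (exact Poisson for reads, Clopper-Pearson for shares) cover counting error only and treat reads as independent. FLI1 and input reads chose the regions, and every FLI1 value, input value and ratio to input below is therefore a description. RUNX1 reads, DNA motifs and gene annotation were not used in that choice.

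FLI1 belongs to the ETS family of transcription factors, whose DNA-binding domain recognises a GGAA core, and it is required for MK to mature. RUNX1 recognises a different sequence and is likewise required for normal platelet production. Enhancers that lie near each other can act on the same gene, and very long stretches of this kind are often named super-enhancers. That name rests on histone marks or Mediator signal, which did not enter here, so loci rich in distal sites are described by their FLI1 bins and are not called super-enhancers.

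Windows of 81 bp centred on the highest FLI1 coverage of the strongest bin of a locus show what the sites look like in DNA, with genes of the MK transcription factor network first. They are given on the plus strand of mm9, and capitals mark ETS motifs, here CCGGAAG with its variant CCGGAAA, and CAGGAAG with its variant CAGGAAA, on either strand. The windows lie outside exons, within 20 kb regions that hold an intron of Runx1 (chr16:92822618-92822698), the upstream flank of Fli1 (chr9:32349250-32349330), the promoter of Nfe2 (chr15:103088985-103089065), DNA 3630 bp upstream of Tal1 (chr4:114725330-114725410), an intron of Meis1 (chr11:18870121-18870201), the promoter of Hhex (chr19:37510306-37510386), the promoter of Sfpi1 (chr2:90923201-90923281), and intergenic DNA between the start of Gtf3c5 and the 3′ end of Gfi1b (chr2:28454862-28454942).
Runx1: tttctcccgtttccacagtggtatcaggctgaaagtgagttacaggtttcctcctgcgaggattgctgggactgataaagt
Fli1: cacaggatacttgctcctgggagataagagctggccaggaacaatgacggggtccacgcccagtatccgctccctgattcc
Nfe2: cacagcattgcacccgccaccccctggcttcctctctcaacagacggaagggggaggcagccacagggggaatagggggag
Tal1: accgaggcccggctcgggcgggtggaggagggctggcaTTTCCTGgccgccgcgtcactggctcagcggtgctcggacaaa
Meis1: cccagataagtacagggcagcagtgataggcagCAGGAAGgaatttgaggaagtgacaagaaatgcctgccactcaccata
Hhex: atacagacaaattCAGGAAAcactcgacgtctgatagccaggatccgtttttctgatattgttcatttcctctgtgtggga
Sfpi1: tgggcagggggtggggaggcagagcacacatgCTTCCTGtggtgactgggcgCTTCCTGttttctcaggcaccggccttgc
Gtf3c5 to Gfi1b: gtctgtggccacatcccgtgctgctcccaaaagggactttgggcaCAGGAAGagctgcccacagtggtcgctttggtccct

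The windows at Tal1, Meis1, Hhex and between Gtf3c5 and Gfi1b each hold 1 of these motifs and the Sfpi1 window holds 2, whereas the windows at Runx1, Fli1 and Nfe2 hold none. A second set comes from genes of platelet signalling and structure: introns of Vav1 (chr17:57429851-57429931), Inpp5d (chr1:89523084-89523164), Itgb3 (chr11:104473059-104473139) and Myh9 (chr15:77650556-77650636), and intergenic DNA near Rap1b (chr10:117293401-117293481).
Vav1: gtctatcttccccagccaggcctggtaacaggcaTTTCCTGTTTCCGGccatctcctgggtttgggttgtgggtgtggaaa
Inpp5d: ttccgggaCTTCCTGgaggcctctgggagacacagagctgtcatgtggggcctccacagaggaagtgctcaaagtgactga
Itgb3: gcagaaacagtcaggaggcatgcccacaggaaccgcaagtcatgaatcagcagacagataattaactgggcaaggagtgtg
Myh9: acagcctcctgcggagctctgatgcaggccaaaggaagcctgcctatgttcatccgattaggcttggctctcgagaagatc
Rap1b: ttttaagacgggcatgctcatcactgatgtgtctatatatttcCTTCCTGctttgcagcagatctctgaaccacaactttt

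The Vav1 window holds 2 ETS motifs side by side, those at Inpp5d and Rap1b hold 1, and the Myh9 and Itgb3 windows hold none. The windows of both sets without an ETS motif hold a GGAA core on either strand. How often so short a sequence occurs in windows of this length was not counted. The window of the strongest bin at Thbs1, a gene described further on, is not shown and holds neither this core nor an ETS motif. Of the motifs defined further on, the Itgb3 window holds 1 RUNX and 1 GATA motif. The Runx1, Fli1 and Meis1 windows each hold 1 GATA motif, and the Sfpi1 and Rap1b windows 1 RUNX motif. Over all dense loci, the 81-bp window of the strongest bin held an ETS motif in 276 cases (59.5%, interval 54.9 to 64.0), against 5.61% of windows of that length taken every 20 kb along the autosomes.

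Some dense loci coincided with high input. In 10 loci at least 1 bin passed the FLI1 minimum but was removed for its input, and these loci hold 307 of the 3788 FLI1-rich bins of dense regions. The extreme case was a 180-kb stretch around Cwc22 (chr2:77700001-77880000, encoding a spliceosome-associated protein), with 211 FLI1-rich bins and 69 bins over the input limit. Its FLI1-rich bins held 9.26 input reads on average, against 3.28 over all bins of the genome, and 6.50 RUNX1 reads, against 0.599. Other loci with many such bins lay around 1600014C10Rik (16 bins over the limit), on chromosome Y (67), at Mid1 and Gm17379 on chromosome X (30) and in a stretch of chromosome 16 whose nearest start, that of Olfr161, lies 342398 bp from its middle (6). FLI1, RUNX1 and input were all raised in the Cwc22 stretch, and the part of input in its FLI1 signal was not tested. Summaries over dense regions and loci are therefore mostly given both with and without these 10 loci.

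**Figure D1:**
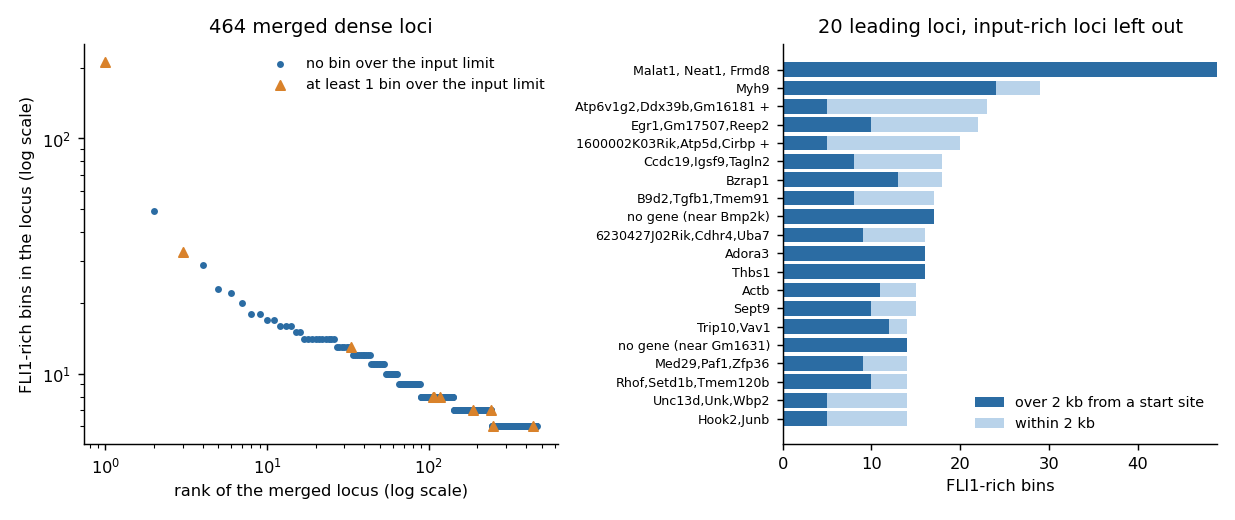
FLI1-rich bins per dense locus. Left, each point is 1 of 464 loci, ranked by its number of FLI1-rich bins (both axes logarithmic), with triangles for the 10 loci that hold bins over the input limit. Right, the 20 leading loci without such bins, with dark bars for bins over 2 kb from a protein-coding start site and light bars for bins within 2 kb. Cwc22 stands at 211 bins, the Malat1 and Neat1 locus at 49 and Myh9 at 29.

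FLI1-rich bins made up 0.565% of the 6637650 bins of the genome, and 10.1% of them lay in dense regions. In dense regions they formed 2109 separate sites (1983 without the input-rich loci) when adjacent bins were joined, 53.4% of them of a single bin and the widest of 16 bins (6.4 kb). A dense region held a median of 4 sites (range 1 to 12), and 41 of the 501 regions had only 1 or 2, so that their density came from wide sites. The rule has a sharp edge: 241 regions had exactly 6 FLI1-rich bins and 464 had exactly 5. Rich bins of the regions with 6 had a mean of 84.4 FLI1 and 2.25 RUNX1 reads, and those of the regions with 5 had 81.6 and 2.19. Most loci (438) were a single region, 22 spanned 2 regions and 4 spanned 3 or more.

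The long noncoding RNA genes Malat1 and Neat1, which are transcribed at high levels in many cell types, lay in the largest locus without input excess (chr19:5780001-5860000). It held 49 FLI1-rich bins in 19 sites, with 40 to 259 FLI1 reads (median 50), 3.14 RUNX1 reads per rich bin (interval 2.67 to 3.68) and 4.49 input reads. Of these bins, 31 lay on exons, and 10 of the 18 bins over Malat1 and 21 of the 53 over Neat1 were rich. The strongest bin, with 259 FLI1 reads, holds the start of Malat1 (chr19:5802671, minus strand). The pattern was a broad rise along gene bodies with a few narrow peaks. Thrombospondin 1 (Thbs1, a granule protein that platelets release) showed a similar layout (chr2:117940001-117960000), as 10 of its 16 FLI1-rich bins lay on exons and its strongest bin, with 107 FLI1 and 9 RUNX1 reads, lay 15789 bp from the start site, past the gene's 3′ end. Uba7, a ubiquitin-like activating enzyme gene, shared a locus with Cdhr4 and 6230427J02Rik, where all 16 rich bins formed 1 unbroken site. The Uba7 start lies 2106 bp outside this locus.

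Myh9, the gene for the heavy chain of non-muscle myosin IIA, looked different. Its locus (chr15:77620001-77680000) held 29 FLI1-rich bins in 15 sites, 22 of them in introns, with 40 to 225 FLI1 reads (median 62). RUNX1 stood there at 1.97 reads per rich bin (1.49 to 2.55), near the mean of scattered rich bins given further on, and at 1.31 in the other bins. Vav1, a guanine nucleotide exchange factor that acts below platelet receptors, shared a locus of 14 rich bins in 8 sites with Trip10 (chr17:57400001-57440000). Of these bins, 4 were intergenic. The strongest bin, in an intron of Vav1, held 411 FLI1, 9 RUNX1 and 3 input reads. The 13 rich bins of the Runx1 locus (chr16:92800001-92840000) held 45 to 197 FLI1 reads (median 91) and 4.23 RUNX1 reads (3.19 to 5.51), against 0.908 in its other bins. RUNX1 reads were thus higher over the FLI1 sites of both loci than beside them, with a larger difference at Runx1 than at Myh9.

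**Figure D2:**
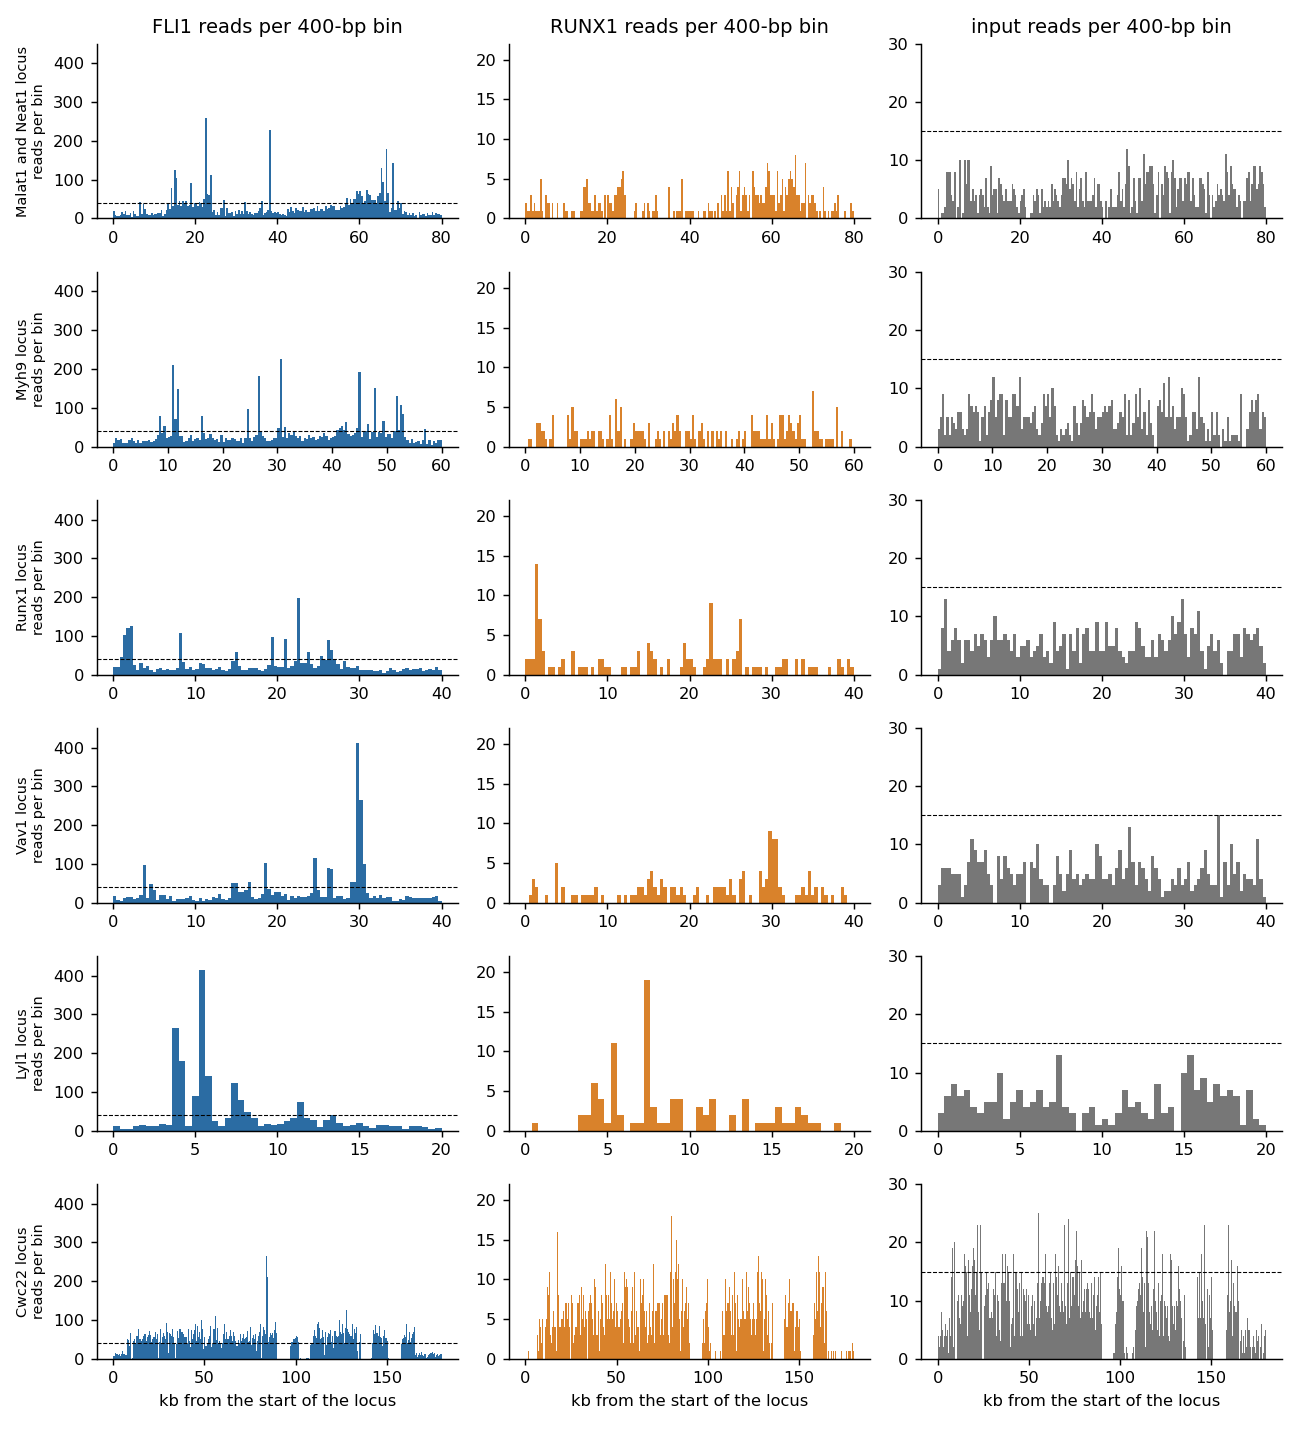
Reads per 400-bp bin of the FLI1, RUNX1 and input libraries (columns) across 6 dense loci (rows), against the distance in kb from the start of the locus. Dashed lines mark the FLI1 minimum of 40 and the input limit of 15 reads, and each column has 1 scale. Vav1 and Lyl1 show narrow peaks of up to 411 and 415 FLI1 reads, the Malat1 and Neat1 locus shows broad stretches, and the Cwc22 stretch has raised bins in all 3 libraries.

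The other leading loci fall into 3 kinds by where their rich bins lie. Gene-dense clusters carried many promoter bins: 18 of 23 bins in the stretch of the cytokine genes Ltb, Tnf and Lta in the major histocompatibility complex, which holds 8 protein-coding start sites, and 15 of 20 in that of Midn and Cirbp. Other clusters combined promoter bins with flanking sites, as at Bzrap1 and Mir142 (5 promoter and 13 distal bins), Actb (4 and 11), Sept9 (5 and 10) and Btg2 (4 and 10). Others of this kind hold several genes: Egr1 with Reep2 and Gm17507 (12 and 10), Tgfb1 with B9d2 and Tmem91 (9 and 8), and Tagln2 with Ccdc19 and Igsf9 (10 and 8). Of the 22 rich bins at Egr1, 14 lay in the 20-kb region of the Reep2 start and 8 in that of the Egr1 start. The last kind had no promoter bin. To it belonged Adora3 (16 bins), a stretch of chromosome 5 without a gene whose nearest start is that of Bmp2k, 76708 bp from its middle (17 bins, 50 to 219 FLI1 reads), and a stretch of chromosome 2 (14 bins, up to 268 FLI1 reads) whose nearest start is that of Gm1631, 57474 bp from its middle.

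Distal bins lie over 2 kb from any protein-coding start site. By a definition of 6 or more distal FLI1-rich bins, 172 of the 464 loci were distal clusters (167 without the input-rich loci), 121 loci had no promoter bin and 52 had no distal bin. Starts of noncoding genes were not counted. The Malat1 and Neat1 locus, with 49 rich bins, is therefore among the distal clusters, although its strongest bin holds the Malat1 start. From the list of blood transcription factors described further on, the Runx1 (10 distal bins) and Meis1 (6) loci met this definition. So did the loci of Inpp5d (11), Vav1 (12, shared with Trip10), Rasa3 (6), Gnaq (6), Myh9 (24), Itgb3 (6) and Cd9 (7). The loci of Thbs1 (16), Sykb (7), Tgfb1 (8, shared with B9d2 and Tmem91) and Actb (11) met it too, as did that of Nup107 and Rap1b (11). Among loci of immediate early genes, those of Egr1 (10, shared with Reep2 and Gm17507), Btg2 (10) and Zfp36 (9, shared with Med29 and Paf1) also met it.

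Dense regions held more genes than others. They had 0.956 protein-coding start sites per region, against 0.542 in scattered regions and 0.100 in regions with no FLI1-rich bin, and 64.1% (59.7 to 68.3) held at least 1. Promoters accounted for 39.9% of rich bins in dense regions (42.4% without the input-rich loci) and 37.7% in scattered regions, against 4.38% of all bins. Exons took 6.49%, introns 25.8% and intergenic DNA 27.7% of rich bins in dense regions (6.06%, 25.3% and 26.2% without the input-rich loci), and 5.01%, 28.0% and 29.3% in scattered ones. The makeup of the 2 groups thus differed by a few percentage points, while gene starts per region differed more.

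RUNX1 was the one factor measured apart from the rule, though at low depth. FLI1-rich bins of dense regions held 2.63 RUNX1 reads each (2.57 to 2.68), scattered FLI1-rich bins 1.94 (1.92 to 1.95) and all bins with complete reference sequence 0.621 (0.599 when bins with unknown bases are included). The ratio of dense to scattered was 1.35 (1.33 to 1.38), and 1.23 (1.20 to 1.26) without the 10 input-rich loci, where the mean was 2.38. Input in the same bins was 5.08 reads in dense regions without those loci and 5.01 in scattered ones. With each library scaled to its depth, RUNX1 stood 2.66 times over input in dense rich bins (2.57 without the input-rich loci) and 2.12 times in scattered ones. Over the genome it stood at 1.00, a value that the scaling sets. The rule capped input in every rich bin, and the dense ratio was 2.93 with an input limit of 10 reads and 2.50 with none. The ratios to input are therefore descriptions. Input may also have been fragmented in another way than the ChIP libraries, and the part of this in the ratios was not tested. At least 5 RUNX1 reads were found in 16.6% of dense rich bins (13.1% without the input-rich loci), in 8.86% of scattered ones and in 0.346% of all bins. The excess in dense regions was therefore present with and without the input-rich loci, and smaller without them.

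Because dense regions also had slightly stronger FLI1 bins (means of 86.0 without the input-rich loci and 75.9 in scattered regions), bins of like FLI1 reads were compared, again without those loci. Mean RUNX1 reads of dense bins rose with the FLI1 class, from 1.83 at 40 to 59 FLI1 reads through 2.28 and 2.88 to 4.25 at 160 or more, and those of scattered bins from 1.54 through 1.98 and 2.63 to 3.50. The dense to scattered ratio of RUNX1 reads was 1.19 (1.14 to 1.23) at 40 to 59 FLI1 reads, 1.15 (1.10 to 1.20) at 60 to 99, 1.10 (1.04 to 1.16) at 100 to under 160 and 1.22 (1.15 to 1.29) at 160 or more. The last class has no upper limit, and its mean FLI1 reads were 215.2 in dense and 205.9 in scattered bins. The part of this difference in its ratio was not tested. For distal bins the 4 ratios were 1.25, 1.22, 1.09 and 1.20. For promoter bins they were 1.05 (0.991 to 1.12), 1.05 (0.991 to 1.12), 1.11 and 1.22, so that the intervals of the lower FLI1 classes included 1. The other bins of dense regions held 0.926 RUNX1 reads and 14.8 FLI1 reads without the input-rich loci, against 0.587 and 8.98 in regions with no rich bin, so both libraries were also raised between the sites. Input was raised there too, at 4.62 reads against 3.21, and RUNX1 over input, scaled to depth, was 1.097 against 0.999.

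**Figure D3:**
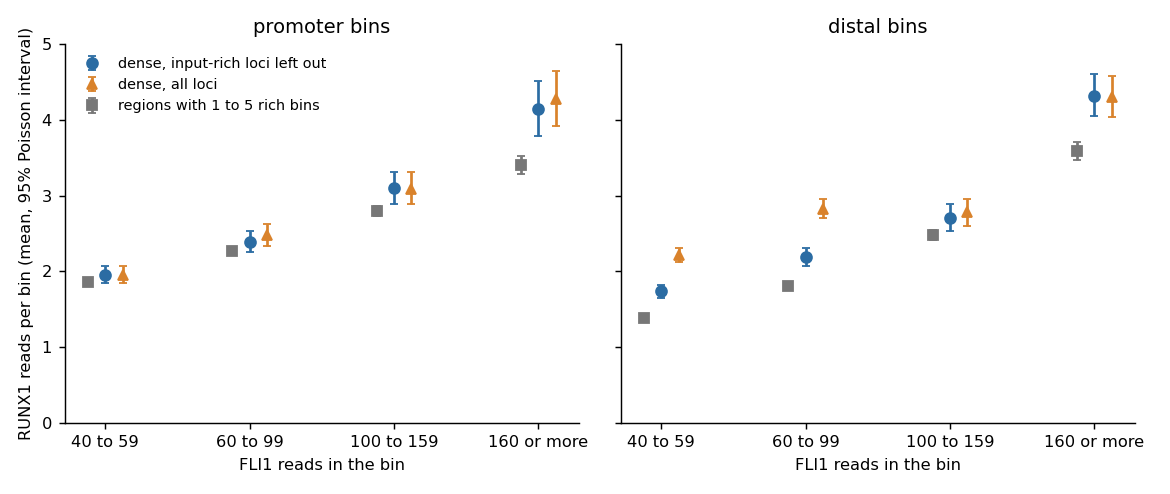
Mean RUNX1 reads per FLI1-rich bin (95% Poisson interval) by the number of FLI1 reads in the bin, for promoter bins (left) and distal bins (right). Circles are dense regions without the 10 input-rich loci, triangles all dense regions and squares regions with 1 to 5 rich bins. Circles lie above squares in each class, with overlapping or touching intervals for promoter bins of fewer than 100 FLI1 reads and for distal bins of 100 to under 160.

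Within loci, the mean RUNX1 reads of rich bins exceeded that of the other bins in 451 of 464 loci (443 of 454 without the input-rich loci). Input did so in 299 (294), but the rule capped input in rich bins and not in the others. The input count is thus no control for the RUNX1 count. In 335 loci a single bin had the most RUNX1 reads. That bin was FLI1-rich in 232 of them (69.3%, 64.0 to 74.1), although FLI1-rich bins were 15.1% of the bins of dense regions, and it was the strongest FLI1 bin in 98. The median locus had 2.29 RUNX1 reads per rich bin and 0.909 per other bin, and 5 in 100 loci had 4.00 or more. No locus was without a RUNX1 read in its rich bins.

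Beyond Cwc22 and chromosome Y, the loci with most RUNX1 reads per FLI1-rich bin lay at genes of varied roles. The highest was a cluster on chromosome 8 (chr8:122880001-122900000, 6.29 RUNX1 reads over 7 bins, 6.71 input reads). It lies in an intron of Gm20388, a long gene model that also overlaps the dense loci of Gse1 and Zfpm1. The start nearest to its strongest bin is that of Gse1, 118565 bp away. Another locus with many RUNX1 reads was a stretch between Gtf3c5 and Gfi1b (chr2:28440001-28460000). It begins 730 bp from the start site of Gtf3c5, the nearest one, and ends 4970 bp from the gene body of Gfi1b and 17502 bp from the Gfi1b start site. Gtf3c5 encodes a subunit of a general factor of RNA polymerase III. Gfi1b encodes a zinc-finger repressor needed by MK and red cells. The 7 rich bins of this stretch held 49 to 403 FLI1 reads and 5.43 RUNX1 reads, against 0.907 in the other bins, and its strongest bin held 403 FLI1, 13 RUNX1 and 6 input reads. Mknk1, a kinase gene, had 5.33 RUNX1 reads, and Ubash3b, encoding a phosphatase that restrains SYK, had 5 in 1 of its 2 dense loci (1.43 in the other), as did a stretch near Synpo.

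At Lyl1 and Nfe2 the RUNX1 signal was concentrated in peaks. Lyl1, a basic helix-loop-helix factor related to TAL1, shared its locus with Nfix and Trmt1 (10 rich bins, up to 415 FLI1 reads), with 5.30 RUNX1 reads per rich bin against 1.03 elsewhere and at most 19 in a bin. Nfe2, which encodes the p45 subunit of NF-E2 and is needed for platelet release, had 8 rich bins with 5.25 RUNX1 reads against 0.881 elsewhere, and the bin at its promoter held 413 FLI1, 19 RUNX1 and 7 input reads. By contrast Hhex, a homeobox gene, had the FLI1-rich bin with most reads of all dense loci (430) with only 2 RUNX1 reads in it. The 6 rich bins of Meis1 held 1.00 RUNX1 reads each, near the 1.07 of its other bins. Those of Mafk, encoding a small Maf protein that pairs with p45, held 0.833. The RUNX1 values of Hhex, Meis1 and Mafk rest on few reads. Hhex thus had high FLI1 reads with few RUNX1 reads, whereas Lyl1 and Nfe2 were high in both.

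ETS motifs were found in 56.0% of rich bins of dense regions (54.4 to 57.6; 58.1% without the input-rich loci), in 64.7% of scattered ones (33685 bins) and in 25.03% of all bins. The share fell with crowding, from 70.2% of rich bins that were alone in their region to 59.1% in regions with 5, 60.2% in regions with 6 and 55.7% in regions with 10 or more (without the input-rich loci, and 47.0% with them). The gap was smaller between sites than between bins. When only the strongest bin of each site was counted, the shares were 65.3% (63.2 to 67.3) in dense and 68.6% in scattered regions, and 66.9% in dense regions without the input-rich loci. Among strongest bins, promoter sites came to 62.6% in dense and 62.3% in scattered regions and distal sites to 66.8% and 71.8%. Without the input-rich loci, the distal share in dense regions was 69.7% (67.1 to 72.3), an interval that includes the share in scattered regions, and the promoter share was 62.4%. In the Cwc22 stretch, 53 of 211 rich bins (25.1%) held an ETS motif, near the 25.03% of all bins.

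Other motifs were searched on both strands in the same 400-bp bins. RUNX motifs (TGTGGT or TGCGGT) were present in 36.1% of dense rich bins (36.8% without the input-rich loci), 39.2% of scattered ones and 27.5% of all bins, and the NF-E2 or AP-1 core (TGAGTCA) in 10.9% (11.2%), 10.6% and 6.18%. GATA motifs (AGATAA or TGATAA) were present in 29.6% of dense rich bins (28.7%), 32.2% of scattered ones and 42.1% of all bins. The GGAA repeat (GGAAGGAA, which can overlap an ETS motif) was present in 9.95% (10.4%), 10.9% and 4.78%. GC content was 52.5% (53.5%) in dense and 51.8% in scattered rich bins, against 41.8% over all bins, and the motifs differ in base composition.

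**Figure D4:**
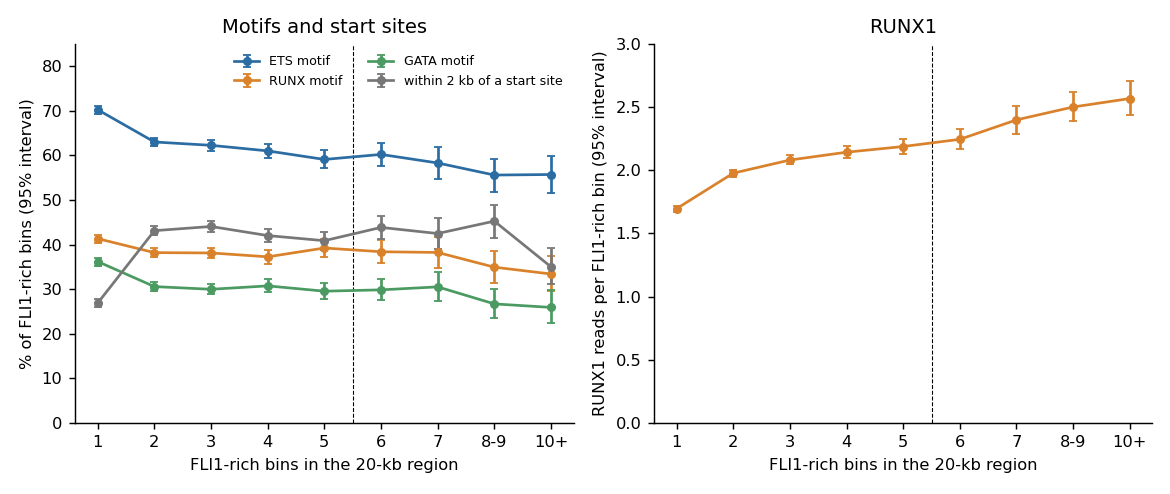
FLI1-rich bins grouped by how many the 20-kb region holds, without the 10 input-rich loci. Left, the percentage of these bins with an ETS, RUNX or GATA motif or within 2 kb of a start site, and right, their mean RUNX1 reads, all with 95% intervals. The dashed line separates scattered from dense regions. RUNX1 goes from 1.70 to 2.57 reads and the ETS share from 70.2% to 55.7% between the first and last groups.

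Of 22367 protein-coding genes, 670 (3.00%) overlapped a dense locus, and 40.9% had a FLI1-rich bin within 2 kb of a start site. Overlap means that the gene body reaches into the locus, whether or not a rich bin lies in the gene. Transcription factors of blood cells overlapped in 10 of 32 cases: Fli1, Runx1, Nfe2, Mafk, Tal1, Lyl1, Hhex, Meis1, Zfpm1 (FOG1, the cofactor of GATA1) and Sfpi1 (PU.1, an ETS factor). The Fli1 gene itself had 9 rich bins in its start region, the strongest with 219 FLI1, 5 RUNX1 and 5 input reads, 427 bp from its start. Gata1, Gata2, Gfi1b, Lmo2, Etv6 and Erg did not overlap, although Gata1, Gfi1b, Lmo2, Etv6 and Erg had a rich bin within 2 kb of a start. The list was thus split between genes in dense loci and genes with scattered sites or none.

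Signalling genes overlapped in 10 of 25 cases. They included the kinases Sykb (SYK) and Lyn, the adaptors Dok2 and Sh2b3 (LNK, an inhibitor of thrombopoietin signalling), the phosphatases Inpp5d (SHIP1) and Ptpn11 (SHP2), the G protein Gnaq, the exchange factor Vav1, the small GTPase Rap1b and its inhibitor Rasa3. Rap1b, which switches platelet integrins to their active state, overlapped 2 dense loci of 14 and 9 rich bins, with 4.21 and 2.11 RUNX1 reads per rich bin. The locus of 9 holds its start site, and that of 14 also holds Nup107, a nuclear pore gene, whose start lies 40 bp from the strongest bin (190 FLI1 and 7 RUNX1 reads). The 14 rich bins there were 3 promoter and 11 intergenic bins, with none classed as exon or intron. They cannot be credited to Rap1b alone. At Inpp5d, the 11 rich bins were all distal, with up to 270 FLI1 and 2.27 RUNX1 reads on average.

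Cytoskeletal genes overlapped in 6 of 19 cases: Myh9, Actb, Tln1 (talin) and Fermt3 (kindlin-3), which bind integrin tails, Zyx (zyxin) and Diap1 (a formin). Fermt3 had a bin of 427 FLI1 reads and 2.63 RUNX1 reads per rich bin. Among granule and secreted proteins, 5 of 19 overlapped: Pf4, Thbs1, Tgfb1, Srgn (serglycin, the granule proteoglycan) and Nbeal2, which is needed to form alpha granules. Platelet surface receptors overlapped in 3 of 25 cases. These were Itgb3, the beta-3 integrin subunit of the fibrinogen receptor (9 rich bins, 4.56 RUNX1 reads against 1.59, its strongest bin with 197 FLI1, 14 RUNX1 and 9 input reads), Cd9, a tetraspanin (7 bins, 1.29 RUNX1 reads), and F2rl2, a thrombin receptor.

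Of 15 MK markers only Itgb3 and Pf4 overlapped a dense locus (13.3%, 1.66 to 40.5), whereas 13 had a rich bin near a start, among them Itga2b, Gp9, Gp1ba, Gp5 and Tubb1. Markers of other cell types overlapped in 1 of 12 erythroid (Epor), 1 of 11 lymphoid (Cd79a, beside Arhgef1), 0 of 10 granulocyte and monocyte, 0 of 11 endothelial and 0 of 7 hepatocyte genes, the last without a rich bin at any start. A rich bin near a start was found for 4 of 12 erythroid and 3 of 11 lymphoid genes (33.3% and 27.3%). These shares lie below the 40.9% of all protein-coding genes. Such a bin was also found for 8 of 10 granulocyte and monocyte and 8 of 11 endothelial genes. Some genes with such a bin, among them Epor, Kdr and Tek, also rise in mature MK by the list described below. The 8 granulocyte and monocyte genes with such a bin are not on that list, so this feature was also found at genes outside it. The study reports a small remainder of granulocytes and macrophages in its MK populations. The part of these cells in the counts was not tested. Immediate early and stress genes overlapped in 6 of 12 cases (Egr1, Jun, Junb, Ier2, Zfp36 and Btg2) and housekeeping genes in 3 of 12 (Gapdh, Eef2 and Ywhaz). At the immediate early genes, RUNX1 reads per rich bin ran from 2.00 at Ier2 to 3.57 at Junb. Dense loci were thus found at genes of general as well as of MK function.

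The study also lists, from microarrays, genes whose RNA rises as MK mature. Genes of this list overlapped in 96 of 681 cases (14.1%, 11.6 to 16.9), against 574 of 21686 other genes (2.65%). This list comes from RNA of the same cell system and is not an independent choice of genes. By the study's methods, a gene could enter it only if the array measured it and called it present in at least 1 sample. The other genes were not filtered in this way and include genes that were not measured. The part of this difference in the overlap was not tested. Members of the list were also longer (median 26.8 kb against 15.2 kb), and the part of length in the overlap was not tested. The shares by gene length were 15.8% against 2.36% up to 10 kb, 30 of 200 genes against 3.39% from 10 to 30 kb, 14.5% against 2.19% from 30 to 100 kb and 9.40% against 2.76% beyond. A FLI1-rich bin at a start was present in 70.0% of the list. Overlapping members included Itgb3, Pf4, Myh9, Nfe2, Tal1, Lyl1, Meis1, Alox12 (platelet lipoxygenase), Ptgs1 (cyclooxygenase 1) and Plek (pleckstrin).

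**Figure D5:**
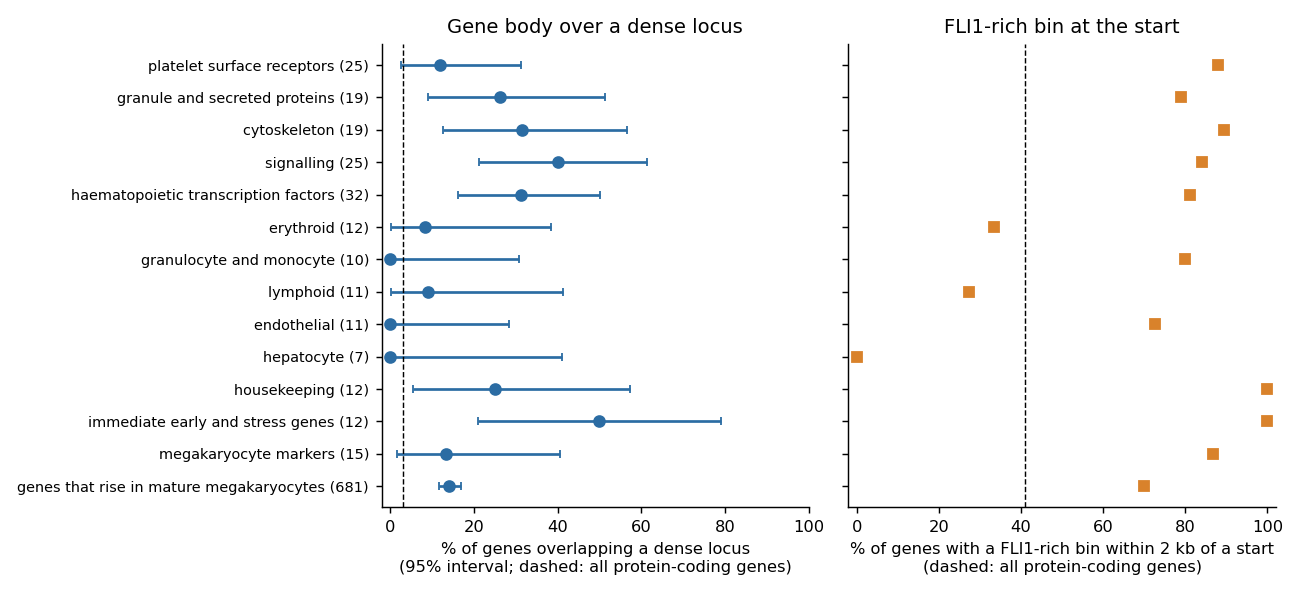
Gene lists and FLI1. Left, the percentage of each list's genes that overlap a dense locus (95% Clopper-Pearson interval), with the number of genes in parentheses and a dashed line at 3.00% for all protein-coding genes. Right, the percentage with a FLI1-rich bin within 2 kb of a start site, with a dashed line at 40.9%. The list of genes that rise in mature MK stands at 14.1% and 70.0%.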

How the data were processed

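FLI1 and RUNX1 ChIP and input reads came from 3 libraries of MKMat, grouped by their labels. Bowtie was the authors' aligner and mm9 their assembly. The deposited files list where each unique alignment lies and on which strand (reads of 50 bp for ChIP, 34 bp for input), so every count here is a number of deposited reads. Labels and methods differ on the embryonic day, the library kit and how input DNA was fragmented. By the study's methods, input chromatin was cut with micrococcal nuclease, while that for FLI1 and RUNX1 was sonicated. Whether input is a matched background for the ChIP libraries was therefore not settled. Repeats of an input position (3.24% of its reads) and mitochondrial reads were dropped. Read ends were moved inwards by 63 bp (FLI1) or 80 bp (RUNX1, input), to the middle of a fragment, and counted in 400-bp bins with Python 3.11.15, numpy 2.4.6 and scipy 1.17.1. The counting was tested on simulated reads. Promoters reach 2 kb from a start of a protein-coding transcript in GENCODE M1, and sequences are those of NCBIM37, the same build as mm9. FLI1 coverage for windows used reads extended to 126 bp. Of 692 accessions of genes that rise in mature MK, taken from the study's supplement as read from page images, 683 matched, to 681 genes.

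The regions and gene lists were chosen with earlier results of these data known. Named genes are those of the 25 loci with most rich bins, the 10 with most distal bins and the 10 with most RUNX1 reads per rich bin, and list members that overlap a dense locus. Other genes (Malat1, Neat1, Mir142, Gfi1b, Gtf3c5, Gse1, Nup107, Synpo, Arhgef1, Bmp2k, Gm1631, Mid1, Gm17379, Olfr161, Sash3, Xpnpep2, Alox12, Ptgs1, Plek and list members without a dense locus) were named after their values were seen. Some genes that the rule names are not reported here. NF-E2, H3K4me2 and the MK of day 2 were not analysed here. Alternatives concerned the read minimum, input limit, number of rich bins, grid, read shift, repeats, depth, promoter width and motif window.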

Additional observations from a re-analysis of the deposited data

How the results depend on the processing

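The rule sets the number of regions. With a FLI1 minimum of 30 reads there were 1497 dense regions in 1296 loci, with 60 reads 86 in 78, with 5 rich bins 965 in 869 and with 8 rich bins 146 in 132. Distal clusters numbered 611, 28 and 62 with 30 reads, 60 reads and 8 rich bins, and joining nearby rich bins into loci without a grid gave 985 loci. Overlapping genes were 7.79%, 0.545%, 5.50% and 0.899% under the first 4 rules, 2.53% with an input limit of 10, 2.77% with the grid moved by 200 bp and 3.24% with FLI1 thinned to a share of 0.5 and a minimum of 20 reads.

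The RUNX1 ratio of dense to scattered bins stayed above 1 under every alternative run. It was 1.27 and 1.45 at 30 and 60 FLI1 reads, 1.28 and 1.56 with 5 and 8 rich bins, 1.31 with an input limit of 10, 2.74 without an input limit, and 1.23 without the input-rich loci, an alternative chosen after seeing the data. RUNX1 over input was 2.19, 3.22, 2.55, 2.96, 2.93, 2.50 and 2.57 in the same order, and 2.59 with FLI1 thinned to a share of 0.5 and a minimum of 20 reads. The promoter share was 37.4%, 34.8% and 35.4% with 30 reads, 60 reads and 8 rich bins, 43.0% with an input limit of 10, 36.5% without one, 36.7% with the grid moved by 200 bp, 30.9% for promoters of 1 kb and 42.4% without the input-rich loci. The ETS share was 53.0%, 59.8% and 51.4% with 30 reads, 60 reads and 8 rich bins, 50.6% without an input limit, 44.0% in the 100 bp around the highest coverage of the bin and 58.1% without the input-rich loci. In all, 59 of 107 values stayed within the main interval or within 1.5 times the main count. The RUNX1 file used here is 3973856 reads deep, or 0.599 reads per bin, so single loci with few rich bins have wide intervals. No paired analysis was possible because each antibody has 1 library.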

Other observations

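Dense regions were unevenly spread over chromosomes. Chromosome 11 held 57 (9.36 per 1000 regions), chromosome 19 held 20 (6.52) and chromosome 10 held 38 (5.85), whereas chromosome 12 held 10 (1.65), chromosome 14 held 9 (1.44) and chromosome X held 2 of its 8333 regions (0.240). Scattered regions followed a flatter pattern, with 230 per 1000 regions on chromosome 11, 124 on chromosome 12 and 43.0 on chromosome X. Protein-coding start sites stood at 271, 116 and 112 per 1000 regions on the same chromosomes. Of the 2 regions of chromosome X, the one at Mid1 and Gm17379 is among the 10 input-rich loci, and the other lies at Sash3 and Xpnpep2.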
